A study of Mus musculus with 6 samples.

Results

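Interferon-induced antiviral effectors are the proteins that carry out the cell's defence once an interferon has bound its receptor. The 10 genes described here were Ifit1, Ifit2, Ifit3, Isg15, Usp18, Rsad2, Bst2, Ifitm3, Ifi27 and Ifi27l2a, taken from a list of symbols and matched to the Ensembl identifiers of the count files through GENCODE release M21. All 10 were found among the 55335 genes listed, and all 10 passed the filter on low counts that left 19809 genes for testing. They were measured by RNA-seq in striatum of C57 mice, in 3 samples with the genotype PDE5A Overexpressing and 3 controls with the genotype WT. PDE5A is a phosphodiesterase that hydrolyses cyclic GMP. The sources used here do not give the means or cell type of overexpression, the treatment of the controls or the age of the animals. Whether the samples of a group came from separate animals is not stated either, so the p-values reflect a spread among 3 samples a group that may be technical.

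Type I interferons bind the receptor chains encoded by Ifnar1 and Ifnar2, and the kinases Jak1 and Tyk2 then phosphorylate transcription factors of the STAT family. A complex that contains Stat2 and Irf9 binds a promoter element known as the interferon-stimulated response element (ISRE). Signalling by type II interferon acts through a different element, the gamma-activated sequence (GAS). The effectors under this control act at different steps of a viral life cycle. In brain they are known to be made by neurons, glia, vascular cells and infiltrating leukocytes alike, so bulk RNA does not say which cells held the transcripts.

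Promoter windows were available from RefSeq (build GRCm38.p6) for 7 of the 10 genes, running from 250 bases before to 50 bases after each annotated start. They were searched on both strands for the ISRE core, which is GAAA, any 2 bases and GAAA again, and for the GAS core, which is TTC, any 3 bases and GAA and reads the same on both strands. The ISRE core was in the windows of 6 of the 7 genes, Isg15, Ifit1, Ifit3, Rsad2, Bst2 and Ifitm3, against 3.99% of the 27025 genes that had a window. In the windows of Ifit2, which has 2 annotated starts, these letters were not found. The GAS core was in the windows of Ifit2, Bst2 and Ifitm3, against 9.55% of genes. Such a match is a description of the sequence and does not show that a factor binds there.

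The stretches below carry the matches of 5 genes and are shown because the arrangement of the core differs between them. Each covers positions −160 to −41 before the RefSeq start, in the direction of transcription, with the ISRE core of either strand in capitals.
Isg15 (chr4:156200859-156200978, minus strand): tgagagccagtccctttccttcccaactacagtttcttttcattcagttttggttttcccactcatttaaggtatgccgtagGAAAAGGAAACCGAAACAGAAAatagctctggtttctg
Ifit1 (chr19:34640729-34640848, plus strand): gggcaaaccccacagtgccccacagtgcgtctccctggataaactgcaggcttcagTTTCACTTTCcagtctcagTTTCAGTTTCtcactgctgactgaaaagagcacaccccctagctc
Ifit3 (chr19:34583369-34583488, plus strand): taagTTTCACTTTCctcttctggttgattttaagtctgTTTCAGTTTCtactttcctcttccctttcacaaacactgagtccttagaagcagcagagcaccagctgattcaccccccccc
Rsad2 (chr12:26456493-26456612, minus strand): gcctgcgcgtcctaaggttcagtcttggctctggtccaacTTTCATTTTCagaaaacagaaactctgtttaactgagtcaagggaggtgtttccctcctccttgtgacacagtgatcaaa
Bst2 (chr8:71537513-71537632, minus strand): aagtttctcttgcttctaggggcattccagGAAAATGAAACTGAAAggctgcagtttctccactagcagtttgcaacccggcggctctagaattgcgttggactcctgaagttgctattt

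Isg15 held 3 overlapping cores on its own strand, from position −78 to −57. Ifit1 and Ifit3 each held 2 separate cores on the opposite strand, at −104 to −95 and −85 to −76 in Ifit1 and at −156 to −147 and −122 to −113 in Ifit3. Rsad2 held 1, at −120 to −111 on the opposite strand. Bst2 held 2 overlapping cores from −130 to −115, the first of which overlapped a GAS core at −136 to −128. Ifitm3 held its matches after the start, with ISRE cores at positions 3 to 12 and 20 to 29 and a GAS core at 14 to 22 that overlapped the second of these.

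**Figure D1:**
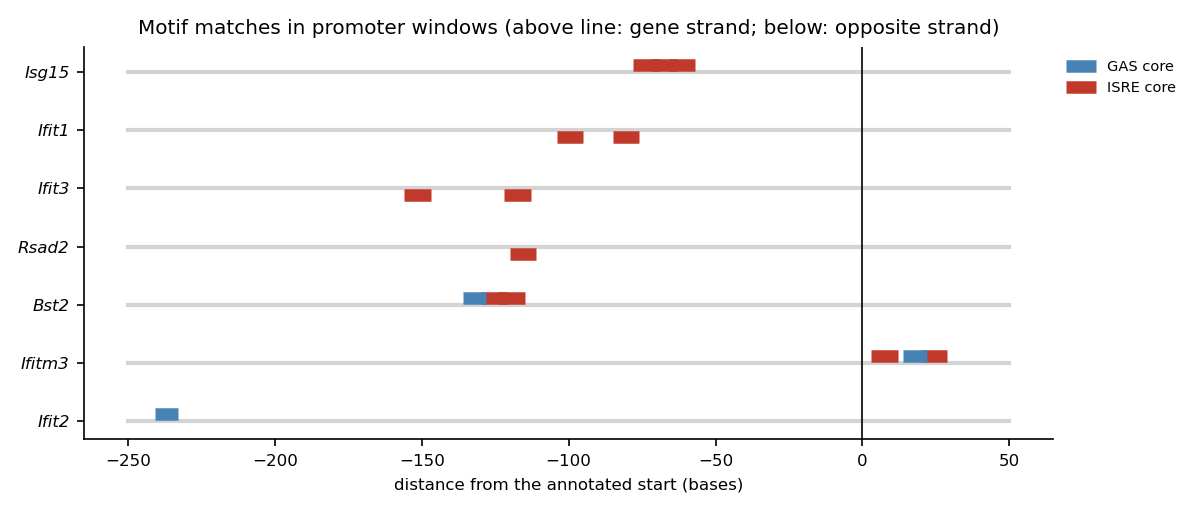
Positions of the ISRE core (red) and the GAS core (blue) in the RefSeq promoter windows of 7 genes, with the distance from the annotated start in bases on the x axis and 1 gene per line. Matches above the line are on the gene's strand and those below it on the opposite strand. The matches of 5 genes lie between −156 and −57, while those of Ifitm3 lie after the start and Ifit2 holds a GAS core alone.

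As a check of the labels, Pde5a had 760.4, 700.5 and 592 CPM (read counts scaled to library totals that were adjusted with TMM factors) in overexpression replicates 1 to 3, against 3.72, 4.14 and 6.09 in controls. It was the 1 gene of the 19809 past the threshold of 0.05, with a Benjamini-Hochberg adjusted p of 0.000151 in the quasi-likelihood test of edgeR. The libraries held 33013698 to 39271447 counts in overexpression and 40653784 to 42288789 in control. Markers of medium spiny neurons, the principal cells of the striatum, were present in every library, with 12 listed genes summing to 3378 to 6586 CPM in overexpression and 3910 to 6836 in control. Markers of cells from outside the striatum also varied. Choroid plexus markers summed to 935, 3508 and 331 CPM in overexpression replicates 1 to 3, against 333 to 459.5 in controls. Enpp2 made up most of the sum in overexpression replicate 3, at 282 CPM, and in controls, at 267 to 379 CPM. The marker Ttr had 481, 2243 and 22.5 CPM in overexpression replicates 1 to 3, against 32.6 to 48.5 in controls. Cortical glutamatergic markers summed to 312 to 1183 CPM in overexpression and 128 to 930 in control.

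The 10 effectors were all higher on average in the overexpression samples, by 1.38-fold (Ifit2) to 5.04-fold (Ifi27l2a). None passed the test over all genes, where 0.00505% of genes were called, and their adjusted p lay between 0.461 for Ifi27l2a and 1.0 by the quasi-likelihood test of edgeR. The median log2 fold change of the 10 was 1.18, where the median over all 19809 genes was 0.00, with 10030 of them positive. At an unadjusted p under 0.05 there were 9 of the 10, all but Usp18, where 2.25% of all genes were higher at that level. The CPM of the overexpression samples lay above those of the controls without overlap for 9 of the 10, all but Ifit2, where 4.81% of all genes were separated in that direction. The members were chosen with earlier results of these data known, so these counts are a description. The DESeq2 Wald test on the same counts called 5 of the 10, Ifi27l2a, Ifi27, Ifit1, Ifitm3 and Ifit3, with adjusted p from 4.74e-05 to 0.0394, while that test called 0.384% of all genes higher and 0.419% in either direction. The limma-voom test called 0 of the 10. On counts simulated with the dispersions of the edgeR fit, 60 of the 231 calls of the DESeq2 Wald test were false. It recovered 73% of simulated 2-fold changes. The quasi-likelihood test of edgeR had 19 false of 181 calls there and recovered 67%, and limma-voom had 18 of 179 and recovered 66%. On the real counts that edgeR test called 1 gene, so the simulation differs from these data. It cannot tell whether the 5 calls of members were false.

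**Figure D2:**
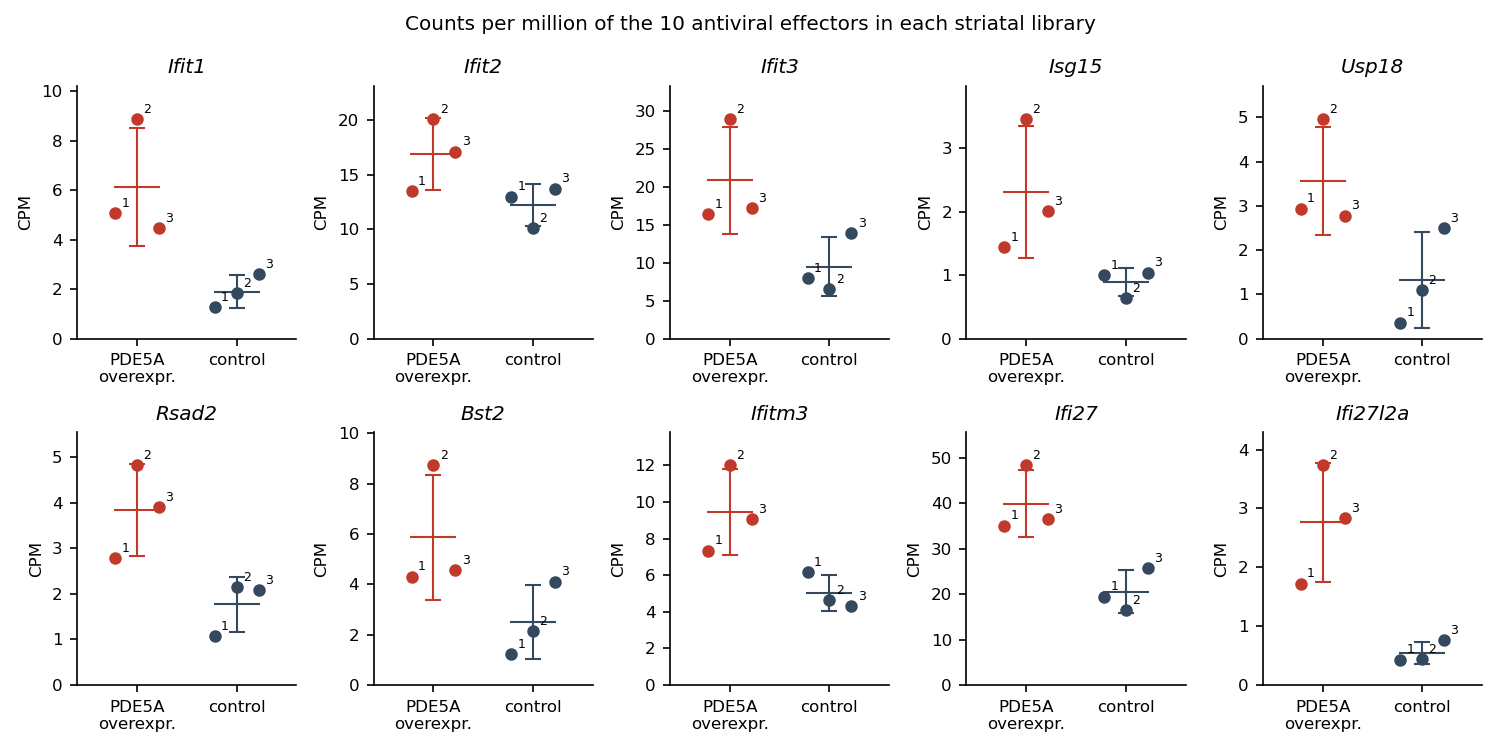
CPM of the 10 effectors in each library (y axis, linear from 0), with the 3 overexpression samples in red on the left and the 3 controls in grey on the right of each panel. Points are numbered by replicate, and bars give the mean ± SD of 3 samples. Overexpression replicate 2 is the highest of the 6 libraries in all 10 panels, and control replicate 3 is the highest control in 8.

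The IFIT proteins bind RNA through tetratricopeptide repeats and sit side by side on chromosome 19. Ifit1 recognises messenger RNA whose cap lacks the methylation of self transcripts. Ifit1 (ENSMUSG00000034459, chr19:34640871-34650009, plus strand, protein-coding) had 5.07, 8.87 and 4.46 CPM in overexpression replicates 1 to 3, against 1.26, 1.83 and 2.60 CPM in control replicates 1 to 3. The groups were separate, with the lowest overexpression sample at 1.72 times the highest control, and the highest sample was 1.99 times the lowest in overexpression and 2.05 times in control. The log2 fold change was 1.69 (SE 0.35), with an adjusted p of 0.804 (edgeR quasi-likelihood).

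Ifit3, which stabilises Ifit1-containing complexes in human cells, had 16.4, 29.0 and 17.2 CPM in overexpression, against 7.94, 6.56 and 13.9 CPM in control. Its groups were separate, but control replicate 3 came close to overexpression replicates 1 and 3. The log2 fold change of Ifit3 (ENSMUSG00000074896, chr19:34583531-34588731, plus strand) was 1.14 (SE 0.35). Its neighbour Ifit3b is a near copy: 51.2% of the 50-base words in Ifit3 transcripts also occur in Ifit3b, so the division of counts between them is uncertain. Ifit3b averaged 11.5 ± 2.39 CPM in overexpression and 5.41 ± 1.82 CPM in control (SD, n = 3 each), and the count of Ifit3 over that of Ifit3b was 1.79 ± 0.232 in overexpression and 1.73 ± 0.246 in control (SD, n = 3 each, exact permutation p = 0.7).

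Ifit2, which has been linked to apoptosis and to restriction of neurotropic viruses in mice, had a smaller fold change than Ifit1 and Ifit3. Ifit2 (ENSMUSG00000045932, chr19:34550694-34576419, plus strand) had 13.5, 20.1 and 17.1 CPM in overexpression, against 13.0, 10.1 and 13.7 CPM in control, so that the groups overlapped. Its log2 fold change of 0.46 (SE 0.17) was the smallest of the 10, although 5.92% of all genes had one at least as large. Groups overlapped too for the relatives Ifit1bl1 (log2 fold change 0.63, SE 0.43) and Ifit1bl2 (0.77, SE 0.90). Those of Ifit3b were separate. No 50-base word of Ifit2 occurs in another gene, so its count is not shared with its relatives. For Ifit1, 7.13% of the 50-base words also occur in Ifit1bl2 or Ifit1bl1. The count of Ifit1 over that of Ifit2, a ratio that does not depend on library size and was chosen after the values were seen, was 0.375, 0.441 and 0.260 in overexpression, against 0.0972, 0.181 and 0.189 in control. These ratios did not overlap, and an exact two-sided permutation test gave p = 0.1, the smallest that 3 samples against 3 allow, and 0.233 after Benjamini-Hochberg adjustment over the 7 ratios computed. Of the 7, all chosen after values were seen, 3 were separate between groups and 4 overlapped. The adjustment does not account for that choice, and the share over other pairs of genes was not computed. Ifit3 over Ifit2 was 1.22, 1.44 and 1.002 in overexpression, against 0.611, 0.650 and 1.009 in control, which overlapped (exact permutation p = 0.2).

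ISG15 is a ubiquitin-like protein that is joined to other proteins or released as a signal, and Usp18 both removes it from its targets and dampens signalling at the type I interferon receptor. Isg15 (ENSMUSG00000035692, chr4:156199424-156200818, minus strand) had 1.44, 3.46 and 2.0 CPM in overexpression, against 1.0, 0.634 and 1.04 CPM in control, from 57, 115 and 75 counts against 42, 26 and 42. The groups were separate with overexpression replicate 2 far above the rest, and the log2 fold change was 1.36 (SE 0.37). Usp18 (ENSMUSG00000030107, chr6:121245906-121270917, plus strand) had 2.94, 4.96 and 2.78 CPM in overexpression, against 0.358, 1.10 and 2.5 CPM in control. Its controls spanned a 6.98-fold range, wider than for any other of the 10, and control replicate 3 lay just under overexpression replicate 3. The log2 fold change of Usp18 was 1.43 (SE 0.64), and it was 2.29 without control replicate 3. Exons of Gm44148 on the opposite strand overlap Usp18, and no source used here gives the strand setting of the counting.

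The enzymes that attach ISG15 to its targets are given next. Uba7, the activating enzyme, averaged 6.85 ± 0.866 CPM in overexpression and 3.66 ± 0.516 CPM in control (SD, n = 3 each), a log2 fold change of 0.90 (SE 0.17) with an adjusted p of 0.626 (edgeR quasi-likelihood). The ligase Trim25 averaged 9.88 ± 0.446 CPM in overexpression and 7.92 ± 0.883 in control, and for both genes the groups were separate. Herc6, the main ligase for ISG15 in mice, averaged 15.5 ± 4.29 CPM in overexpression and 9.63 ± 4.07 in control, and the conjugating enzyme Ube2l6 averaged 3.56 ± 1.13 in overexpression and 3.22 ± 1.42 in control, with overlapping groups. Of these 4 genes 0 passed the test, 4 had positive fold changes, and the median was 0.50 on the log2 scale. The count of Isg15 over that of Uba7 was 0.247, 0.466 and 0.276 in overexpression, against 0.296, 0.190 and 0.244 in control, which overlapped (exact permutation p = 0.4).

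Rsad2 encodes viperin, a radical SAM enzyme that makes a chain-terminating nucleotide from CTP. Rsad2 (ENSMUSG00000020641, chr12:26442746-26456452, minus strand) had 2.79, 4.81 and 3.90 CPM in overexpression, against 1.07, 2.15 and 2.08 CPM in control. All 3 overexpression samples were above all controls, with a log2 fold change of 1.12 (SE 0.32). Cmpk2, a mitochondrial nucleotide kinase whose gene lies beside Rsad2, averaged 26.6 ± 0.238 CPM in overexpression and 24.2 ± 1.30 in control (SD, n = 3 each), with a log2 fold change of 0.14 (SE 0.08). The count of Rsad2 over that of Cmpk2, again chosen after the values were seen, was 0.104, 0.180 and 0.148 in overexpression, against 0.0439, 0.0847 and 0.0913 in control (exact two-sided permutation p = 0.1, adjusted over the 7 ratios 0.233).

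Bst2 and Ifitm3 are membrane proteins that act on enveloped viruses at their exit and at their entry. Bst2, or tetherin, holds budding virions at the cell surface. Bst2 (ENSMUSG00000046718, chr8:71534255-71537456, minus strand) had 4.31, 8.72 and 4.56 CPM in overexpression, against 1.24, 2.15 and 4.11 CPM in control. The groups were separated by little, since the lowest overexpression sample was 1.05 times the highest control, and the log2 fold change was 1.23 (SE 0.48). Ifitm3 hinders fusion of viral and endosomal membranes. Ifitm3 (ENSMUSG00000025492, chr7:141009586-141010770, minus strand) had 7.35, 12 and 9.08 CPM in overexpression, against 6.18, 4.63 and 4.33 CPM in control. Here control replicate 1 was the highest control and replicate 3 the lowest, the reverse of the order in Usp18 and Bst2. The log2 fold change of Ifitm3 was 0.91 (SE 0.22), and 10.02% of its 50-base words occur in other genes, among them Ifitm2. The count of Ifitm3 over that of Ifitm2 was 1.97, 3.47 and 2.43 in overexpression, against 2.38, 1.76 and 1.58 in control, which overlapped (exact permutation p = 0.2).

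The relatives of these families were mixed. Ifitm2 averaged 3.64 ± 0.157 CPM in overexpression and 2.66 ± 0.0768 CPM in control (SD, n = 3 each), with separate groups and a log2 fold change of 0.45 (SE 0.16). Ifitm1 averaged 1.21 ± 0.277 CPM in overexpression and 1.42 ± 0.0533 in control, and Ifit1bl1 averaged 1.75 ± 0.948 CPM in overexpression and 1.14 ± 0.299 in control, with overlapping groups for both. Of 8 relatives tested, 0 passed, 6 had positive and 2 negative fold changes, and the median log2 fold change was 0.35.

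Ifi27 and Ifi27l2a encode small hydrophobic proteins and lie within a few kilobases of each other on chromosome 12, on opposite strands. Human IFI27 has been placed in mitochondria and the nuclear envelope, and the antiviral role of the mouse genes is less settled. Ifi27 (ENSMUSG00000064215, chr12:103434211-103440239, plus strand) had the highest level of the 10, at 35.1, 48.4 and 36.5 CPM in overexpression, against 19.5, 16.5 and 25.8 CPM in control. Its log2 fold change of 0.96 had the smallest standard error but 1 among the 10, 0.19, with an adjusted p of 0.820 (edgeR quasi-likelihood). Ifi27l2a (ENSMUSG00000079017, chr12:103442167-103443680, minus strand) had 1.72, 3.73 and 2.83 CPM in overexpression, against 0.429, 0.439 and 0.767 CPM in control, from 68, 124 and 106 counts against 18, 18 and 31. The lowest overexpression sample was 2.25 times the highest control, the widest gap among the 10, and the log2 fold change was 2.33 (SE 0.37), with an adjusted p of 0.461 (edgeR quasi-likelihood). The count of Ifi27l2a over that of Ifi27, chosen after the values were seen, was 0.0491, 0.0771 and 0.0776 in overexpression, against 0.0221, 0.0265 and 0.0298 in control (exact two-sided permutation p = 0.1, adjusted over the 7 ratios 0.233).

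**Figure D3:**
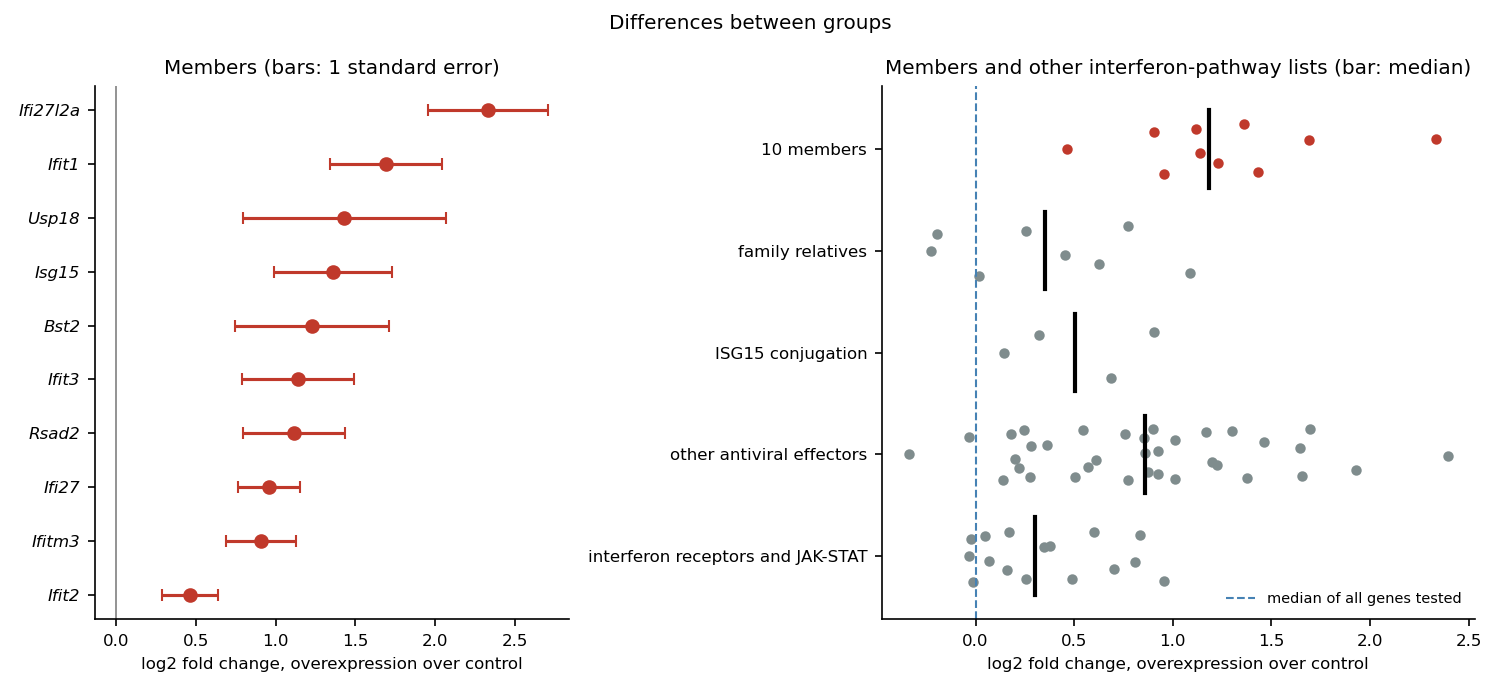
Log2 fold changes of overexpression over control (x axis) for the 10 effectors with 1 standard error (left) and for the tested genes of the 10 effectors and 4 other interferon-pathway lists (right), with a black bar at each list's median and a dashed line at the median of all genes tested. The members run from 0.46 for Ifit2 to 2.33 for Ifi27l2a, with a median of 1.18, and the medians of the other lists lie between 0.30 and 0.86.

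Levels can be set beside each other only per length of transcript. In CPM per kilobase of exon, the overexpression samples had 27.2 ± 4.98 for Ifi27, 14.0 ± 3.47 for Ifitm3 and 11.9 ± 4.03 for Ifit3. Controls had 14.0 ± 3.22, 7.44 ± 1.46 and 5.42 ± 2.22 for the same genes (SD, n = 3). These 3 genes led in both groups, and Ifitm3 and Ifit3 did not differ beyond their spread. At the other end were Usp18, at 1.28 ± 0.437 in overexpression and 0.472 ± 0.390 in control, and Rsad2, at 0.884 ± 0.234 in overexpression and 0.407 ± 0.139 in control. In between, Ifi27l2a had 5.96 ± 2.17 in overexpression and 1.18 ± 0.415 in control, whereas Ifit2 had 4.31 ± 0.844 in overexpression and 3.13 ± 0.490 in control. Bst2 had 6.49 ± 2.75 in overexpression and 2.77 ± 1.62 in control, Isg15 had 3.04 ± 1.38 in overexpression and 1.18 ± 0.296 in control, and Ifit1 had 2.31 ± 0.901 in overexpression and 0.714 ± 0.252 in control. Ifi27l2a thus had a higher mean per kilobase than Ifit2 in overexpression, by less than the spread between samples, and a lower one in control.

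Across libraries the 10 effectors differed in how closely they followed their common level. Their mean log2 CPM (prior count of 2) was 2.48, 3.30 and 2.70 in overexpression replicates 1 to 3, against 1.23, 1.42 and 2.01 in control replicates 1 to 3. Overexpression replicate 2 was the highest of the 6 libraries for 10 of the 10 genes, and overexpression replicate 1 the lowest of its group for 8. Control replicate 3 was the highest control for 8 of the 10, and controls 1 and 2 were the lowest library for 5 and 4 genes. The mean level of overexpression samples exceeded that of controls by 1.27 on the log2 scale, while the SD between samples was 0.43 in overexpression and 0.41 in control.

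The genes outside the list with the most similar profile were sought among 16033 tested genes of at least 1 CPM on average, by the root-mean-square distance between centred log2 CPM over the 6 libraries and the mean profile of the members. The nearest 8 were Ifit3b, Gbp3, Lgals3bp, H2-K1, B2m, Psmb9, Gbp4 and Psmb8, at distances of 0.119 to 0.211, where the median gene stood at 0.737. The members themselves stood at 0.174 (Ifit3) to 0.599 (Usp18) from their own mean profile, and Ifitm3, Ifit2 and Ifi27l2a were at 0.424, 0.475 and 0.493. Gbp3 and Gbp4 are guanylate-binding proteins, H2-K1 and B2m are chains of class I molecules, Psmb8 and Psmb9 are immunoproteasome subunits, and Lgals3bp is a secreted glycoprotein that binds galectins. Lgals3bp had 17.8, 31.8 and 17.5 CPM in overexpression, against 8.21, 9.19 and 13.6 in control. Gbp3 had 10.03, 15.2 and 13.3 CPM in overexpression, against 4.10, 4.53 and 7.70 in control. In both genes overexpression replicate 2 was the highest library and control replicate 3 the highest control, as in most of the 10. The libraries are shared by all of these genes and the distance uses the difference between groups, so the likeness is a description.

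**Figure D4:**
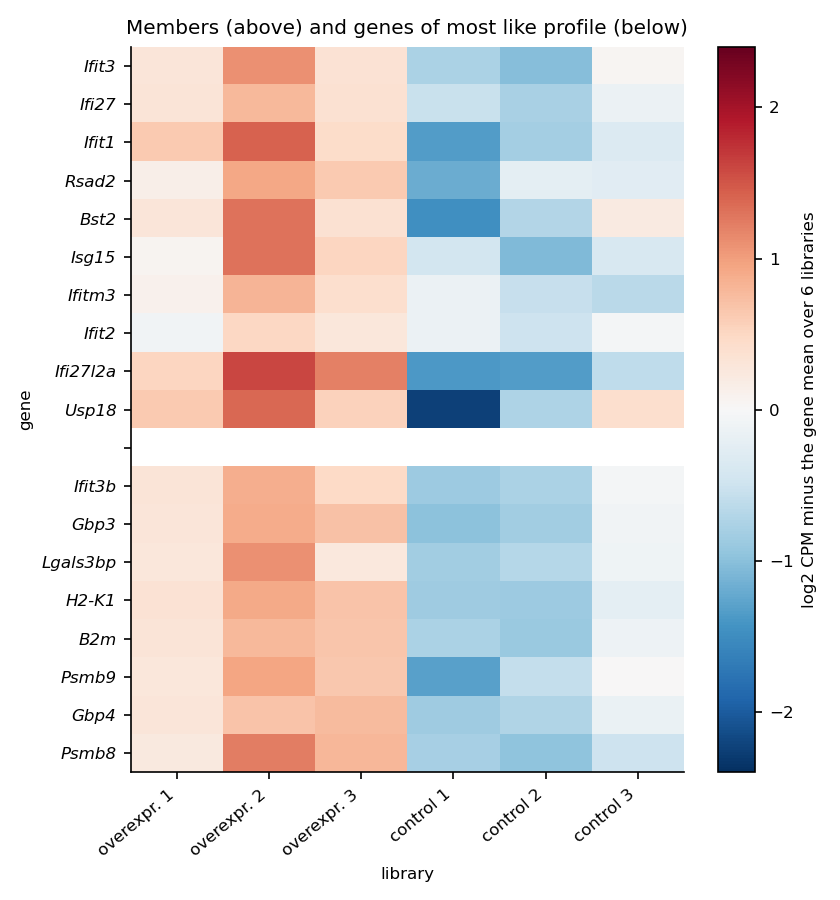
Log2 CPM of each gene minus its mean over the 6 libraries (colour scale), with overexpression replicates 1 to 3 on the left and control replicates 1 to 3 on the right. The 10 effectors are above, ordered by their distance from their own mean profile, and the 8 genes of most similar profile are below. Overexpression replicate 2 is the reddest column for the 10 effectors, Usp18 is lowest in control replicate 1, and control replicate 3 is paler than the other controls in most rows.

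Other genes of the pathway are given from lists that were chosen with earlier results of these data known. Their counts are therefore a description. Of 37 further antiviral effectors 35 were tested, 0 passed, 33 had positive fold changes and the median was 0.86 on the log2 scale. The 4 with the smallest p were Parp12, an ADP-ribosyltransferase, at 17.1 ± 2.08 CPM in overexpression and 10.1 ± 0.543 in control, Oas1a, an activator of RNase L, with a log2 fold change of 2.39 (SE 0.50), Xaf1, a regulator of apoptosis, with 0.61 (SE 0.13), and Sp100, a nuclear body protein, at 6.03 ± 0.401 CPM in overexpression and 3.34 ± 0.792 in control (SD, n = 3 each). The groups were separate and higher in overexpression for 20 of the 35, where 4.81% of all genes were.

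Among 16 receptor and JAK-STAT genes 0 passed, 13 had positive fold changes and the median was 0.30. The receptor chain Ifnar1 averaged 40.3 ± 1.28 CPM in overexpression and 40.7 ± 1.89 in control (SD, n = 3 each), with a log2 fold change of −0.02 (SE 0.07). Among the transcription factors further down the pathway, Stat2 averaged 24.7 ± 3.04 CPM in overexpression and 19.0 ± 1.58 in control. Irf9 averaged 12.7 ± 3.23 CPM in overexpression and 8.39 ± 1.013 in control, with overlapping groups, and Il10rb, a receptor chain shared with type III interferons, averaged 7.51 ± 0.798 CPM in overexpression and 5.35 ± 0.472 in control. Transcripts of the interferons themselves were at the limit of detection. Of 21 interferon genes 0 passed the filter on low counts and 16 had no count in any library, and all 21 together held 12 counts in overexpression and 7 in control. A count of 0 allows up to 0.0764, 0.0909 and 0.0813 CPM in overexpression replicates 1 to 3 and 0.0709 to 0.0738 CPM in controls. These limits are 3 counts over library totals without the TMM factors, and they cover counting error only. Ifng, the type II interferon, had 2 counts in overexpression replicate 2 and none elsewhere. The type I gene Ifna9 had 4 counts in overexpression replicate 3 and none elsewhere. Ifnk had 4 in overexpression replicate 1 and 4 in control replicate 2. Ifne had 2 in overexpression replicate 2 and 2 in control replicate 2, and Ifnz had 1 in control replicate 2.

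Markers of other cell types varied beside the effectors. In bulk RNA fewer cells of a type and less RNA per cell cannot be told apart. Leukocyte markers (T, NK and infiltrating myeloid cells) had positive fold changes for 11 of 11 tested genes of 16 listed. Groups were separate and higher in overexpression for 9 of the 11, where 4.81% of all genes were, and 0 passed the threshold. Their median log2 fold change was 1.84, above the 1.18 of the 10 effectors. The 16 listed markers summed to 62.6 to 92.3 CPM in overexpression and 49.99 to 80.7 in control, most of it from Cd4. The mean log2 CPM of the tested markers was 0.41, 0.81 and 0.73 in overexpression replicates 1 to 3. It was −1.40, −1.07 and −0.49 in control replicates 1 to 3, so control 3 was the highest control here too. Gzmb had no counts in any control, Cd3e none in control replicate 2 and Cd3d none in control replicates 1 and 2. The part of these cells in the result was not tested.

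Choroid plexus markers were positive for 15 of 15 genes, with 331 to 3508 CPM in overexpression and 333 to 459.5 in control, and no marker was at 0 in all libraries of a group. Overexpression replicate 3 had the lowest choroid plexus sum of the 6 libraries, at 331 CPM, and a mean effector log2 CPM of 2.70. Overexpression replicate 2 had the highest sum, at 3508 CPM, and a mean effector log2 CPM of 3.30. The highest control mean was 2.01. The median log2 fold change of the 10 was 1.18 in the main fit and 0.89 with choroid plexus marker level in the model. Without overexpression replicates 1 and 2, the libraries high in these markers, it was 0.97 and 10 of 10 were positive, in a fit with 1 overexpression sample. The part of choroid plexus in the result was not tested. Microglia markers summed to 543 to 705 CPM in overexpression and 588 to 623 in control, with 9 of 14 positive. Their median log2 fold change was 0.05. Of the 14, 2 were separate and higher, where 4.81% of all genes were, and 1 was separate and lower, where 4.11% were. Endothelial markers summed to 201 to 233 CPM in overexpression and 171 to 243 in control, with 3 of 10 positive. No marker of either list was at 0 in a whole group, and both sets of sums overlapped between groups. Astrocyte markers summed to 4799, 4471 and 4197 CPM in overexpression, against 4963, 5079 and 5378 in control. These sums were lower in every overexpression sample, with 0 of 8 markers positive, 4 of 8 separate and lower, where 4.11% of all genes were, and 0 past the threshold. Their part in the result was not tested.

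**Figure D5:**
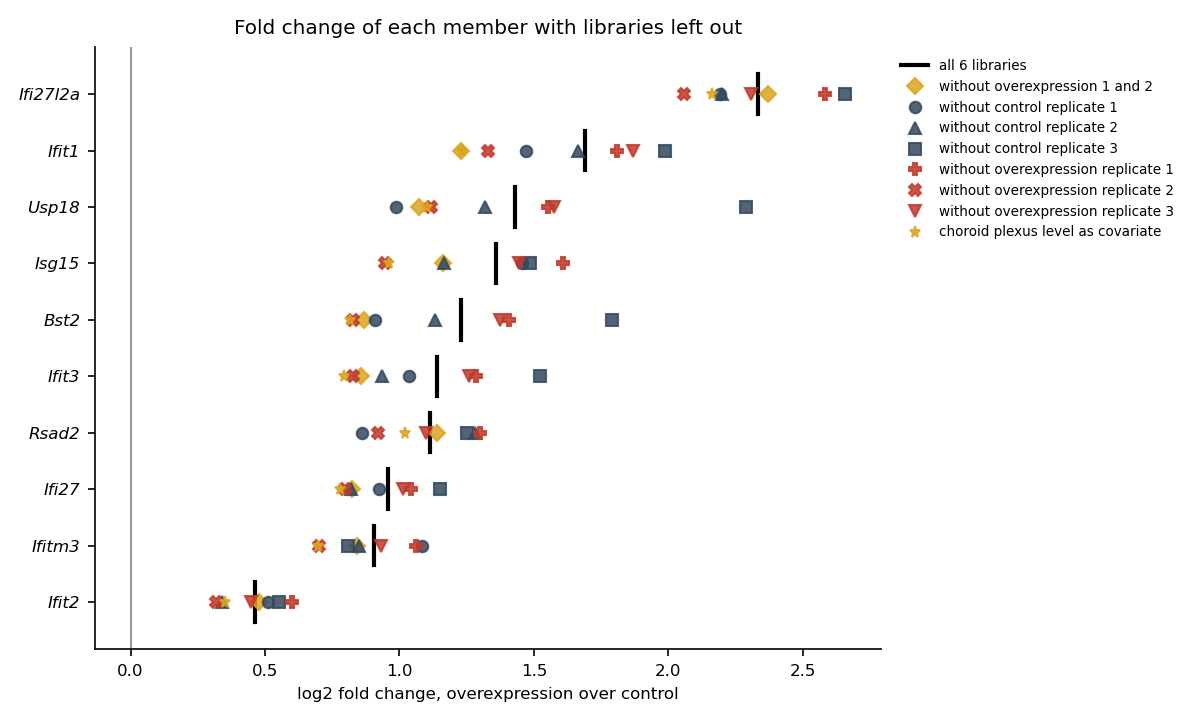
Log2 fold change of overexpression over control (x axis) of each effector with all 6 libraries (black bar), with 1 library left out (red symbols for overexpression, grey for control), without overexpression replicates 1 and 2 (gold diamond) and with choroid plexus marker level in the model (gold star). Every symbol lies above 0, and the lowest, at 0.32, is Ifit2 without overexpression replicate 2.

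Whichever was left out, the median of their log2 fold changes lay between 0.87 (without overexpression replicate 2) and 1.5 (without control replicate 3), and all 10 stayed positive. Usp18 had the widest range, between 0.99 without control replicate 1 and 2.29 without control replicate 3, and Ifi27l2a stayed between 2.06 and 2.66. With any 1 library left out, 0 of the 10 passed the quasi-likelihood test of edgeR.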

How the data were processed

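Strand-specific TruSeq libraries were made from Trizol-extracted striatal RNA, per the labels' protocols. The authors deposited whole-number counts per Ensembl gene, 1 file per sample, without normalization. The submitters' processing notes name build mm10, DESeq 1.16.1, Cuffnorm, STAR 2.5.3a and FastQC 0.11.5 and give no roles. The counter, its strand setting and the annotation are named in no source used here, so counts of overlapping or near-identical genes are uncertain.

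Samples were grouped by title. Of 55335 identifiers 55154 matched GENCODE M21, which gave symbols, coordinates (GRCm38, the assembly of mm10) and exon lengths. Counts were fitted with edgeR 4.0.16 in R 4.3.3 (TMM factors, filterByExpr, robust quasi-likelihood F-tests, two-sided, Benjamini-Hochberg over 19809 genes, threshold 0.05). Standard errors are the absolute log2 fold change over the square root of F. DESeq2 1.42.0, limma 3.58.1 and the other settings were alternatives. The tests were tried on counts simulated with the dispersions of the edgeR fit. Shared sequence was counted in words of 50 bases. Replicate numbers were not taken to pair the samples, since the labels do not say what they mark.

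The members, gene lists, tests and alternatives were chosen with earlier results of these data known. Genes named are Pde5a, the 10 members, up to 4 per other list with the smallest p, and the 8 of nearest profile. One gene that this rule names is not reported here. Other named genes (Cmpk2, Ifnar1, Ifit1bl2, the interferon genes and those of the marker lists), the GAS core and the count ratios were chosen after values were seen.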

Additional observations from a re-analysis of the deposited data

How the results depend on the processing

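Over 17 alternatives all 10 genes kept positive fold changes wherever they could be fitted, and 162 of 167 fits of a single gene stayed on the same side of the threshold. The other 5 were the DESeq2 Wald test, which called 5 members where edgeR called 0. The median log2 fold change of the 10 lay between 0.87 and 1.5 when 1 library was left out, and was 0.89 with choroid plexus marker level in the model, 0.97 without overexpression replicates 1 and 2, and 1.22 with the replicate number as a block. Genes past the threshold over all genes were 1 in the edgeR fit, and 83 with the DESeq2 Wald test, 5 with limma-voom, 3 without the filter on low counts, 3 with the replicate block, 5 without overexpression replicates 1 and 2 (where the lone overexpression sample is assumed to vary like the controls), and 1 to 2 with 1 library left out. The cause of these differences was not tested. Pde5a ran from 6.99 to 7.44 on the log2 scale in all alternatives and stayed past the threshold. Same-numbered samples had correlations of deviations of −0.02, 0.03 and 0.29 for replicates 1 to 3. Overexpression replicates 2 and 3, but not 1, correlated best with the control of their own number. Whether the numbers pair the samples is thus not settled, and the main fit assumed no pairing. The replicate block called 0 members. Requiring 1 CPM in all libraries left 7 of the 10 genes, without Isg15, Usp18 and Ifi27l2a. A prior count of 0.5 in place of 2 moved none of 60 levels by more than 1 SD of its group, and CPM on unadjusted totals left 9 of 10 genes separate. Counting error weighs most on Usp18, with 15 counts in control replicate 1, and on Isg15 and Ifi27l2a, with 18 to 124 counts per library.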
